A study of Rattus norvegicus with 2 samples.

Results

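The Rab and Arf GTPases and the proteins of the vesicle coats were examined in rat myeloma cells on 2 Affymetrix arrays. Members were all probe sets whose gene symbol in the array's annotation is a Rab GTPase, an Arf GTPase, a subunit of the COPI or COPII coat, a SAR1 GTPase, a clathrin chain or a subunit of the adaptor complexes AP-1, AP-2 or AP-3, and ARFIP1, which was taken by name. This rule found 273 of 54613 probe sets, for 108 of 21357 gene symbols: 60 of Rab GTPases, 6 of Arf GTPases with ARFIP1, 8 of COPI, 11 of COPII with SAR1, 3 of clathrin, 8 of AP-1, 5 of AP-2 and 7 of AP-3. Of these probe sets 255 carried 1 gene symbol and 18 carried several, and the latter are given by their ID only.

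Both samples were YB2/0, a rat myeloma line that grows in suspension. The control sample is labelled as control rat myeloma cells, and the paper describes the cells of comparison as untransfected. The other sample is labelled as sorted cells. In the study these cells carried, through a retroviral vector, a cDNA library of human umbilical vein endothelial cells and were sorted by flow cytometry for binding IgG of patients with Takayasu arteritis, but neither serum nor clone is named in the labels, and the paper's text speaks of clones. No treatment is given for either sample. The arrays carry probe sets named by human genes, so a rat transcript was read only as far as it bound human probes. Inserts of the library are human, so they are not read on equal terms with rat transcripts, and untransfected cells carry none. The part of inserts in the ratios was not tested. Each condition had 1 array, so no value here has a replicate error and no test between conditions was made.

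Small GTPases of the Rab and Arf families switch between a GDP-bound and a GTP-bound form, and in the GTP-bound form they recruit effectors to the membrane of 1 compartment. Coats bend that membrane into vesicles. COPII, assembled by SAR1, carries cargo out of the endoplasmic reticulum, COPI, recruited by Arf1, works within the Golgi and back to the endoplasmic reticulum, and clathrin with AP-1 or AP-2 forms vesicles at the trans-Golgi network and the plasma membrane. AP-3 sorts cargo to lysosomes and related organelles. Plasma cells and myeloma cells are known for heavy secretory traffic through this route.

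The largest folds that the detection calls allowed belonged to ARFIP1 and to clathrin light chain A, both with lower signals in sorted cells. CLTA encodes clathrin light chain A, a part of the triskelion that binds the heavy chain and regulates clathrin assembly. Its probe set 200960_x_at read 183007 in control cells against 8586 in sorted cells, 21.3-fold lower (log2 ratio -4.41). Probe set 216295_s_at went from 144014 to 7889, 18.3-fold lower (log2 ratio -4.19). Probe set 204050_s_at went from 106795 to 14492, 7.37-fold lower (log2 ratio -2.88). All 3 were called Present on both arrays, Present being the call of the MAS5 method that a probe set is detected. Among the 2556 probe sets Present on both arrays they held ranks 2, 3 and 8 from the lowest log2 ratio. The IDs of all 3 end in _x_at or _s_at, so they can bind transcripts of several genes. A lower signal of a culture can come from fewer cells with the transcript or from less RNA per cell, which cannot be told apart here. The other CLTA probe sets, 1560434_x_at, 216293_at and 216296_at, were Absent on both arrays, with log2 ratios of 1.19, -3.31 and 1.81 between signals that were not detected, so no probe set with a gene-specific ID measured the difference in CLTA.

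ARFIP1 encodes arfaptin 1, which binds Arf and Arf-like GTPases at the Golgi and shapes membrane through its BAR domain. Its probe set 218230_at was Present at 22275 in control cells and Absent at 206 in sorted cells, at least 108-fold lower. Where a probe set was Present on the brighter array and Absent on the dimmer one, the fold is a lower limit, with the dim signal set at the higher of its own value and the lowest Present signal of its array, 148 in control cells and 159 in sorted cells. The other ARFIP1 probe set, 214483_s_at, read 5448 (Present) in control cells against 1070.4 (Marginal) after sorting, 5.09-fold lower (log2 ratio -2.35). Both probe sets of the gene were thus lower in sorted cells, and 218230_at held rank 8 from the lowest log2 ratio of the 6821 probe sets Present on at least 1 array. The clathrin heavy chain did not share the difference of the light chain. CLTC, which encodes it and forms the legs of the triskelion, read 72391 in control cells against 88216 in sorted cells at 200614_at (log2 ratio 0.29, Present on both arrays). A further CLTC probe set, 210498_at, was Absent at 175 in control cells and Present at 677 in sorted cells, at least 3.87-fold higher, and the remaining one, 239871_at, was Absent on both. The second light chain gene, CLTB, had 4 probe sets, all Absent on both arrays.

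**Figure D1:**
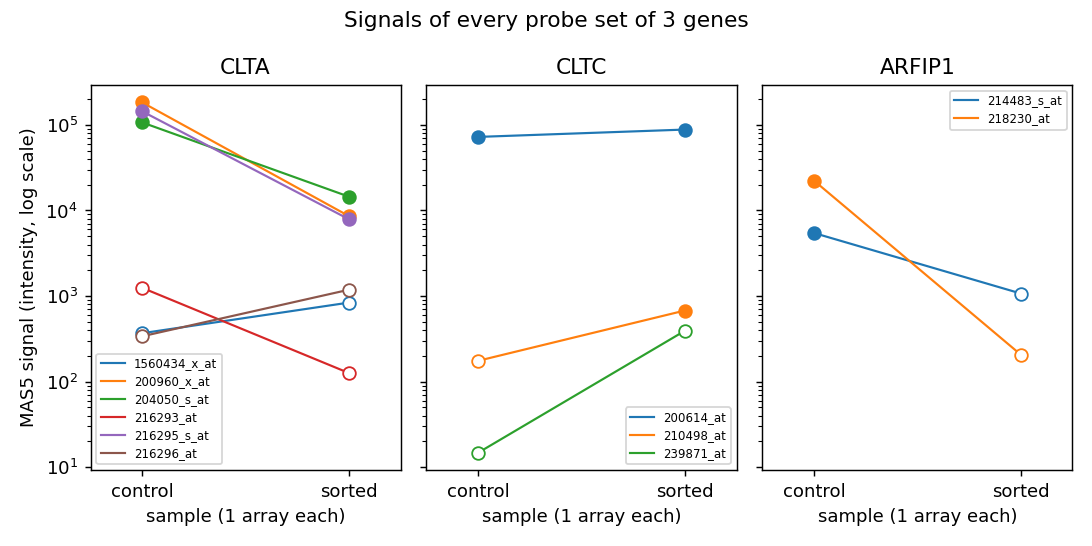
MAS5 signal (intensity, log scale) of every probe set of CLTA, CLTC and ARFIP1 in control and sorted cells, 1 array each. Lines join the signals of 1 probe set, filled points are called Present and open points Marginal or Absent. The 3 detected CLTA probe sets drop from between 106795 and 183007 to between 7889 and 14492, both ARFIP1 probe sets drop, and CLTC stays near its control signal at 200614_at.

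The sequences ahead of 4 rat genes are shown to set members that differed beside ones that did not: the light clathrin chain and ARFIP1, both lower in sorted cells, the heavy clathrin chain, near its control signal at 200614_at, and SAR1B, 2.76-fold higher on arrays that both called it Present. Each run is the 250 bases before the gene's start in RefSeq, build GRCr8, 5′ to 3′ on the gene's strand. Capitals mark GC boxes (GGGCGG or its reverse complement CCGCCC) and CCAAT boxes (CCAAT or ATTGG). Clta lies on the plus strand at chr5:63040970-63041219, Cltc on the minus strand at chr10:72070692-72070941, Arfip1 on the minus strand at chr2:172221166-172221415 and Sar1b on the plus strand at chr10:36525115-36525364.
Clta: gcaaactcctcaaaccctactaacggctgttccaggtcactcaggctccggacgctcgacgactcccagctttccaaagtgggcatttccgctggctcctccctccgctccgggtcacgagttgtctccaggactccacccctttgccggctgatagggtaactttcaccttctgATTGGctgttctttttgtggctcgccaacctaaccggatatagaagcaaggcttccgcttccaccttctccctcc
Cltc: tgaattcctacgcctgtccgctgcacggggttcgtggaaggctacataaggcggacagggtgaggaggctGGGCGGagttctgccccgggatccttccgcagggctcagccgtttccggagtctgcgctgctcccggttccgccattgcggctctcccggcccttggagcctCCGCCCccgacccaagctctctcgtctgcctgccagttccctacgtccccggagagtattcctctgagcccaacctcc
Arfip1: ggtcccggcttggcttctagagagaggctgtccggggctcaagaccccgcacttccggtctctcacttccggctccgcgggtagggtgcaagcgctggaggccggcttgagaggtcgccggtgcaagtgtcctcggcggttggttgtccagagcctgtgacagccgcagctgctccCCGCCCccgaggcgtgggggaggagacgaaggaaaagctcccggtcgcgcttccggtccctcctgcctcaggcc
Sar1b: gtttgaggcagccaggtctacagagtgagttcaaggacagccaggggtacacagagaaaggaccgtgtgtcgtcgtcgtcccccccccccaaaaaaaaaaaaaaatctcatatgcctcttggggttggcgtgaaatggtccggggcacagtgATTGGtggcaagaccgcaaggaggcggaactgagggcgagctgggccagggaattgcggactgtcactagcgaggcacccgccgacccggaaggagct

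The windows of Clta and Sar1b held 1 CCAAT box each, beginning 75 and 98 bases before the start, and no GC box. The window of Cltc held 2 GC boxes and that of Arfip1 held 1, and neither held a CCAAT box. Both strands were searched, and the motifs did not overlap. Clta and Arfip1, whose probe sets were lower in sorted cells, thus did not share either motif in this window. Of the 108 member symbols 89 matched a rat promoter by symbol, and 66 of them (74.2%) held a GC box, against 32.4% of 27457 rat promoters of the same length. A CCAAT box was held by 28 (31.5%), against 34.3% of all, and TATAAA or TTTATA by 2 (2.25%), against 13.1%. The short motif CCACG or CGTGG was held by 45 (50.6%), against 28% of all promoters. The windows of members were also richer in G and C, with a median of 62.4% against 52% for all promoters, and these shares are a description of letters, not of binding. Among the 39 matched member genes with a Present probe set 27 (69.2%) held a GC box. The promoters compared were not limited to genes matched to the array by symbol. Whether these shares are particular to members was thus not tested.

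Members were detected more often than the array as a whole. The reference is not a like one, since every member carries a gene symbol and 11721 of the 54613 probe sets carry none. Whether members differ from other probe sets with a symbol was not tested. In control cells 53 of the 273 probe sets (19.4%) were called Present, against 8.93% of all probe sets, and in sorted cells 46 (16.8%), against 8.24%. On at least 1 array 67 (24.5%) were Present, against 12.5% of all probe sets, and 32 were Present on both, the share of all probe sets being 4.68%. Of the others 21 were Present in control cells only and 14 in sorted cells only. The remaining 206 probe sets were Present on neither array, and their log2 ratios ranged from -4.99 to 4.83, so a ratio of this size between undetected signals carries no measured difference. Of the 108 gene symbols, 47 were carried by a Present probe set, those of shared probe sets included, and 61 were not. Without a Present probe set were 35 Rab symbols, among them RAB27A, RAB35 and RAB8A, as well as ARF3 and ARF5, the COPI subunits COPE, COPG1, COPZ1 and COPZ2, the COPII outer coat subunits SEC13, SEC31A and SEC31B, and the large subunits of AP-1, AP1B1 and AP1G1.

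**Figure D2:**
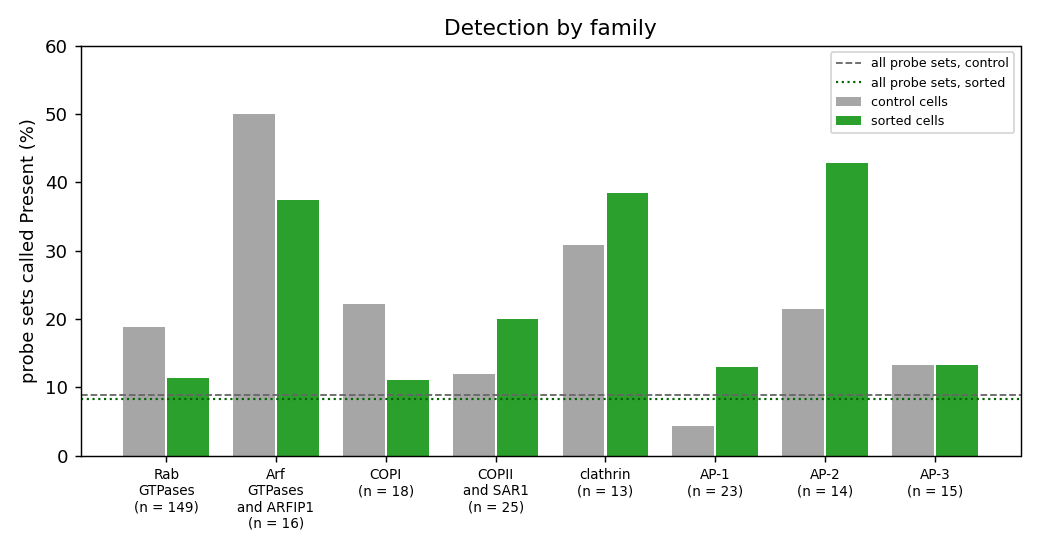
Share of probe sets called Present (vertical axis, in percent) in control cells (grey) and sorted cells (green) for each family, with the number of probe sets below the name and dashed and dotted lines for all probe sets. The Arf family with ARFIP1 reaches 50% in control cells and AP-2 reaches 42.9% in sorted cells, and only AP-1 in control cells, at 4.35%, lies under the share of all probe sets.

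The 2-fold rule used here called a member higher where sorted cells had at least 2 times the control signal and a Present call, and lower where control cells had at least 2 times the sorted signal and a Present call. By this rule 7 members (2.56%) were higher, against 1.61% of all probe sets, and 10 (3.66%) were lower, against 1.77%. Since members were also detected more often, the shares were taken among probe sets Present on at least 1 array as well. There 10.4% of the 67 members were higher, against 12.9% of all, and 14.9% were lower, against 14.1%, so the shares lay near the background. Probe sets Present on only 1 array entered this count through the array on which they were detected, which favours a higher signal there. Among the 32 members Present on both arrays 2 were higher (6.25%), against 6.34% of all, and 5 were lower (15.6%), against 4.15%. Of these 5, 3 belong to CLTA, and the others are RAB2A 208730_x_at and 200065_s_at, an Arf probe set annotated to several genes. Over the 67 members the median log2 ratio was 0.07, against 0.05 for all probe sets Present on at least 1 array, and 38 of the 67 (56.7%) had a ratio above 0, against 52.3% of all. Over the 32 members Present on both it was 0.23, against 0.11, and 21 (65.6%) lay above 0, against 57.5%. Centring on the probe sets Present on both arrays lowers every log2 ratio by 0.11. The split of 7 higher and 10 lower members then becomes 5 and 12, as AP1S2 203300_x_at and RAB1B 220964_s_at drop under 2-fold and RAB8B 222846_at and COPG2 233569_at pass it as lower.

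**Figure D3:**
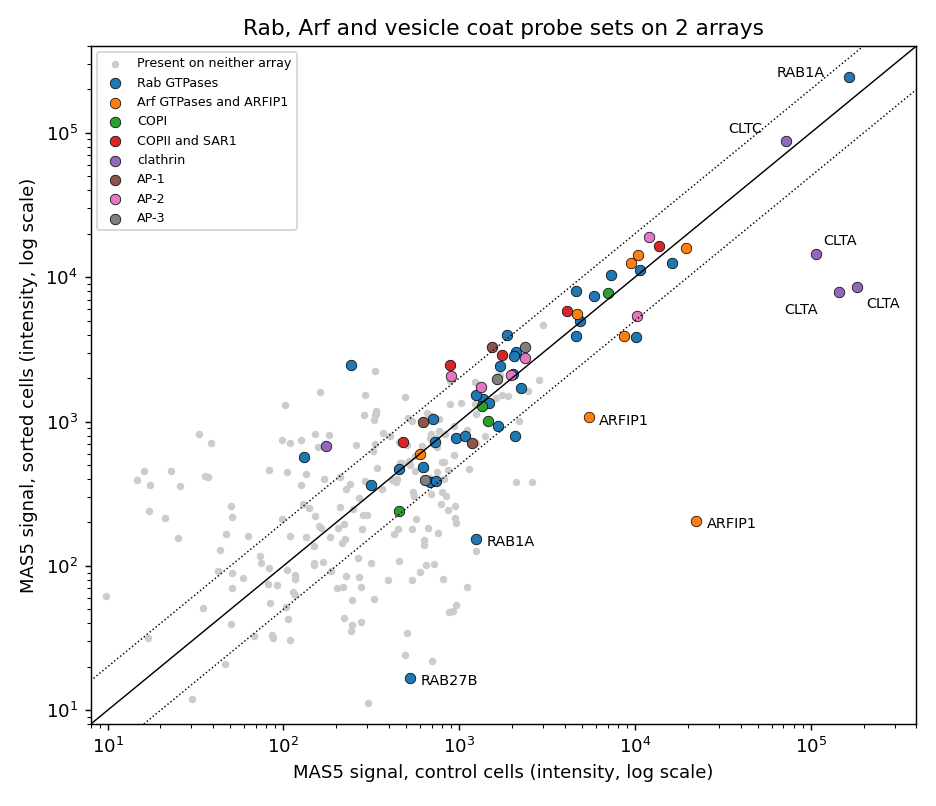
The MAS5 signals of members, with control cells on the horizontal axis and sorted cells on the vertical axis, both as intensity on log scales, from 1 array each. Coloured points are members Present on at least 1 array by family, grey points are Present on neither, a solid line shows where both signals are equal and dotted lines where they differ 2-fold. Most coloured points lie between the dotted lines, and the CLTA and ARFIP1 points lie far below them.

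Among members with 1 symbol, just inside the 2-fold line lay RAB1B with a log2 ratio of 1.09 and RAB25 with -1.39. Just outside it lay RAB2A 208734_x_at with 0.80 and SEC24C with 0.73 on the higher side, and RAB8B with -0.94 and COPG2 with -0.93 on the lower side. Of the 17 members counted, 7 were Present on both arrays, and for 9 the fold is a lower limit only by the convention above. The 15 with 1 symbol belong to 12 genes. In 6 of these genes another Present probe set did not pass the rule, and CLTA and ARFIP1 were the genes with several Present probe sets that all passed it.

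Rab GTPases gave 33 of the 67 detected probe sets, with a median log2 ratio of 0.04 that turned to -0.07 with centring. By the 2-fold rule 3 were higher (9.09%, against 12.9% of all detected probe sets), 4 were lower (12.1%, against 14.1%) and 26 were neither, so both shares lay near the background. RAB1A, which acts in transport from the endoplasmic reticulum to the Golgi, read 164507 in control cells against 244696 in sorted cells at 208724_s_at (log2 ratio 0.57). At 207791_s_at it had 4873 and 4967 (0.03), which is below 0 with centring. Both were Present on both arrays and differed by less than 2-fold. A further RAB1A probe set, 213440_at, was Present at 1239.6 in control cells and Absent at 153 in sorted cells, at least 7.79-fold lower, so the probe sets of this gene differed among themselves. RAB1B, the close relative of RAB1A with the same route, was Absent at 1861 in control cells and Present at 3949.9 in sorted cells, at least 2.12-fold higher at its only probe set with 1 symbol. RAB2A, which acts between the Golgi and the endoplasmic reticulum, was lower at 208730_x_at, from 10130.1 to 3840.2 (log2 ratio -1.40). Its probe set 208734_x_at went the other way, from 4626 to 8040.6 (0.80), and all 4 signals were Present. An _x_at probe set can bind other transcripts, and both of these are of that kind.

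Rab GTPases of the endosomes differed little at the probe sets Present on both arrays. RAB5C, a Rab of early endosomes, read 16218 in control cells against 12539 in sorted cells at 201156_s_at (log2 ratio -0.37). At 201140_s_at it was Absent at 130.4 and Present at 568, at least 3.83-fold higher, so a dim and a bright probe set of the gene differed in direction. RAB7A, a Rab of late endosomes and lysosomes, had 2109 and 3048 at 211960_s_at (0.53), Present on both arrays. Its further probe sets, Present in control cells only, had log2 ratios of 0.57 at 211961_s_at and -0.43 at 223760_s_at. RAB11A, which acts in recycling endosomes, had 7299 and 10387 at 200863_s_at (0.51), and 684 and 378 at 200864_s_at, where it was Absent in sorted cells (-0.85). RAB5A, RAB7B and RAB11B were Present in control cells only, with log2 ratios of 0.29, -0.14 and -0.32.

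RAB27B had the lowest ratio as deposited among the detected Rab probe sets. RAB27B acts in the docking of secretory vesicles, and it was Present at 526 in control cells and Absent at 16.8 in sorted cells at 207018_s_at, at least 3.30-fold lower. The ratio of the signals as deposited was far larger (log2 ratio -4.97), since the dim signal lies under the lowest Present signal of its array, and the other RAB27B probe sets were Absent on both arrays. RAB25, known from recycling endosomes of epithelial cells, was Present at 2092 in control cells and Absent at 798 in sorted cells, at least 2.62-fold lower. RAB10, which acts in transport to the plasma membrane, had 10721 and 11182 at 222980_at (0.06, below 0 with centring) and 2242 and 1696 at 222981_s_at (-0.40), Present on both arrays at both. RAB8B, also of this route, had 743 and 387 at 222846_at (-0.94), Present on both arrays, its other 2 probe sets being Absent on both. RAB3B, of regulated secretion, was Present in control cells only at 205925_s_at (-0.02) and in sorted cells only at 242629_at (0.04). RAB14, which links the Golgi and endosomes, had 5887 and 7387 at 211503_s_at (0.33), its other 2 probe sets being Absent on both arrays. RAB12, RAB21, RAB24, RAB26, RAB28 and RAB31 were Present in control cells only, with log2 ratios from -0.83 for RAB26 to 0.21 for RAB21. Of the Rab probe sets annotated to several genes, 210406_s_at was Absent at 244 in control cells and Present at 2470.1 in sorted cells, at least 10.1-fold higher. Those left, 201048_x_at and 1555630_a_at, had log2 ratios of 0.51 and 0.47.

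**Figure D4:**
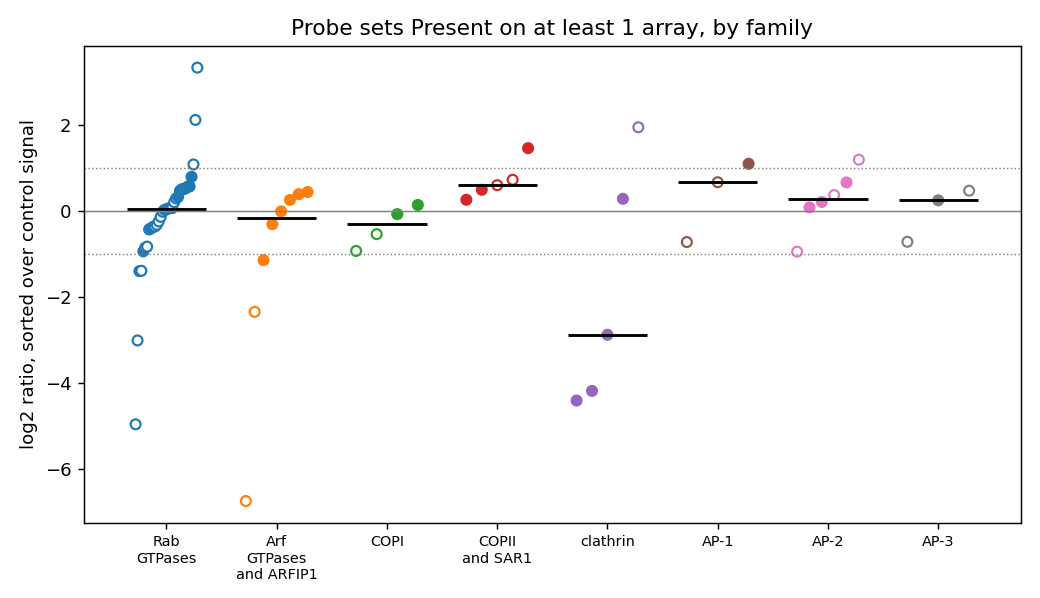
Log2 ratio of sorted over control signal (vertical axis) for the 67 member probe sets Present on at least 1 array, by family (horizontal axis), ordered within each. Filled points are Present on both arrays and open points on 1, bars are medians, and dotted lines mark 2-fold. The 3 filled COPII points lie above 0, and the 3 CLTA points form the low group of the clathrin column.

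Arf GTPases differed by less than 2-fold at all of their detected probe sets with 1 symbol. ARF6, which acts at the plasma membrane and in endocytic recycling, read 19632 in control cells against 15879 in sorted cells at 203311_s_at (log2 ratio -0.31). At 203312_x_at it had 4667 and 5590.4 (0.26), and at 214182_at 595 and 592 (-0.01), all Present on both arrays. ARF4, which acts at the Golgi, had 9545 and 12541 at 201096_s_at (0.39). The 2 detected Arf probe sets annotated to several genes differed in direction, 208750_s_at from 10412 to 14169 (0.44) and 200065_s_at from 8632 to 3907 (-1.14), both Present on both arrays. With ARFIP1 the family had a median of -0.16 over 8 probe sets, and without the gene taken by name it was 0.13.

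COPII and SAR1 had 25 probe sets, of which 5 were detected, 3 of them on both arrays. The log2 ratios of the 3 were 0.26, 0.50 and 1.46, above 0 with centring as well, and 2 more entered through a Present call in sorted cells only, where a ratio above 0 is favoured. Of the 20 that were Present on neither array 13 lay below 0. SAR1B, a GTPase that starts COPII assembly, read 886 in control cells against 2447 in sorted cells at 1554482_a_at, 2.76-fold higher (log2 ratio 1.46), Present on both arrays. It was the only COPII member to pass the 2-fold rule, and its other 4 probe sets were Absent on both arrays. SAR1A, the second SAR1 gene, had 13646 and 16375 at 201543_s_at (0.26). SEC23B, of the inner coat layer that activates SAR1's GTPase, had 4134 and 5829.8 at 201583_s_at (0.50). SEC24A and SEC24C, which select cargo, were Present in sorted cells only: SEC24A had 478 and 726 (0.60), Marginal in control cells, and SEC24C had 1749 and 2899 (0.73), Absent in control cells. Except for SAR1B, each differed by less than 2-fold.

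COPI had 4 detected probe sets. None of them passed the rule in either direction, against 12.9% higher and 14.1% lower of all detected probe sets. COPB1, the beta subunit, read 7033 in control cells against 7757 in sorted cells at 201358_s_at (log2 ratio 0.14). COPA, the alpha subunit, had 1358 and 1291 at 214336_s_at (-0.07). Both were Present on both arrays. COPB2 (-0.54) and COPG2 (-0.93) were Present in control cells only, and the median over the 4 was -0.31. The last 2 entered through a Present call in control cells, and the median of the pair Present on both arrays was 0.03.

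Adaptor subunits gave 12 detected probe sets, of which 2 were higher by the 2-fold rule (16.7%, against 12.9% of all detected probe sets) and 0 were lower, against 14.1% of all. Of these, 2 of AP-1, 3 of AP-2 and 1 of AP-3 entered through a Present call in sorted cells only, where a ratio above 0 is favoured. Only 1, of AP-3, entered through control cells alone. AP2A2, a large subunit of AP-2, was Absent at 895 in control cells and Present at 2052 in sorted cells at 212161_at, at least 2.29-fold higher. Its probe sets 211779_x_at, with 2363 and 2737 (0.21), and 215764_x_at, with 1339 and 1734 (0.37), had smaller ratios. AP2S1, the small subunit of AP-2, had 12028 and 19093 at 208074_s_at (0.67) and 1971 and 2092 at 211047_x_at (0.09, below 0 with centring), Present on both arrays at both. AP2M1, the medium subunit that binds cargo motifs, was Marginal at 10316 and Present at 5357 (-0.95). The detected AP-2 subunits thus differed among themselves in direction. AP1S2, a small subunit of AP-1, was higher at 203300_x_at, from 1543 to 3309.6 (1.10, under 2-fold with centring), but had 1180 and 715 at 230264_s_at (-0.72), where it was Present in sorted cells only. AP1S3 had 622 and 991 (0.67). AP3B1, a large subunit of AP-3, had 1649 and 1960.0 at 203142_s_at (0.25) and -0.72 at 203141_s_at, Present in control cells only, and AP3S1 had 2383 and 3310.5 (0.47).

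Probe sets of 1 gene read the same RNA and are no replicates, but they show how far a ratio depends on the probes. Among members 15 genes had 2 or more Present probe sets with 1 symbol, and in 7 of them (46.7%) the log2 ratios lay within 2-fold of each other, against 411 of 722 genes (56.9%) on the whole array. In 5 of the 15 all ratios had the same sign: AP2A2, AP2S1, ARFIP1, CLTA and CLTC. ARFIP1 spanned the widest range, 4.41 on the log2 scale, followed by RAB1A with 3.59 and RAB5C with 2.49, while RAB3B spanned 0.06 and RAB10 0.46.

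**Figure D5:**
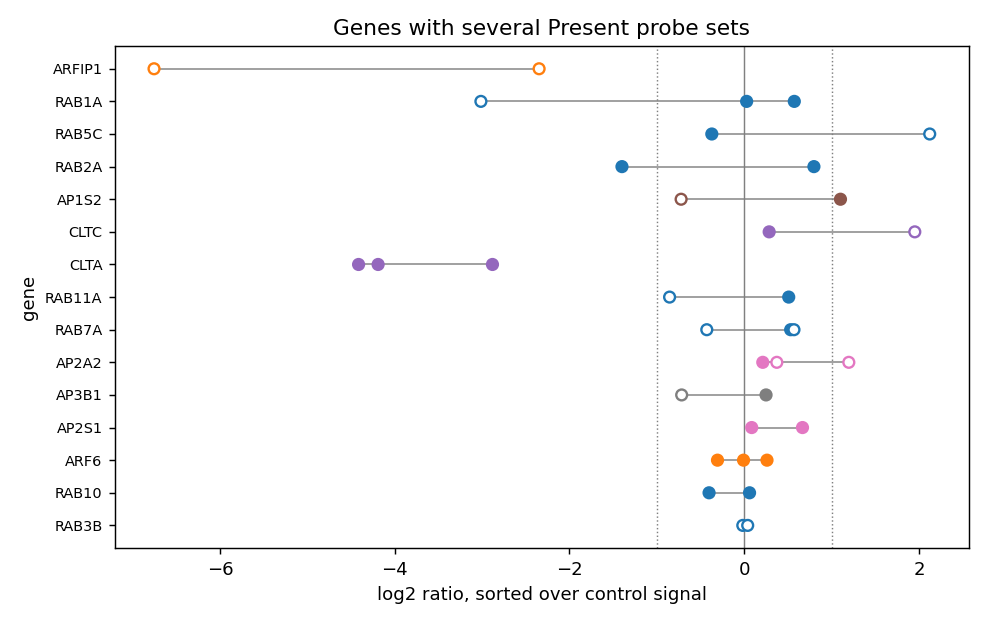
Log2 ratio of sorted over control signal (horizontal axis) for each detected probe set of the 15 genes with several (vertical axis), in order of their spread. Filled points are Present on both arrays, open points on 1, and dotted lines mark 2-fold. The points of CLTA and ARFIP1 lie wholly below the lower line, and those of RAB1A, RAB5C and RAB2A lie on both sides of 0.

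Other genes of membrane traffic were read from 6 lists with 227 genes, of which 212 had a probe set with 1 symbol and 76 had a Present one. Among their 587 probe sets 92 had a Present call, with a median log2 ratio of 0.11, and 6 were higher (6.52%, against 12.9% of all) and 13 lower (14.1%, the share of all being the same) by the 2-fold rule. Of the Rab regulators, RABEP1, an effector of Rab5, was at least 3.14-fold higher at 225064_at by the convention above. With the dim signal floored at the median Absent signal, this fold was under 2. RABEP1 had a log2 ratio of -0.10 at 231002_s_at, Present in control cells only. TBC1D4, a Rab GTPase-activating protein, was at least 6.63-fold lower. Of the Arf regulators, ARFGEF1, an exchange factor for Arf at the Golgi, had 1275 and 3720 (1.54), Present on both arrays, while GIT2 and ACAP1, which activate the GTPase of Arf6, were at least 2.99-fold and 2.77-fold lower. A further GIT2 probe set, 225558_at, had a log2 ratio of -0.47 and did not pass the rule. Of the 14 detected probe sets of COPI and COPII partners 1 was higher (7.14%, against 12.9% of all) and 4 were lower (28.6%, against 14.1%). KDELR1, the receptor that returns proteins to the endoplasmic reticulum, was at least 4.54-fold higher at 200922_at and at least 2.36-fold lower at 1555575_a_at. SURF4, a cargo receptor, was at least 3.09-fold lower, and CNIH4 at least 2.57-fold lower at 243051_at, while its probe set 218728_s_at had a log2 ratio of -0.11. SEC22A had 478 and 140.3 (log2 ratio -1.77), Absent in sorted cells.

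None of the 10 detected probe sets of the clathrin partners passed the rule, against 12.9% higher and 14.1% lower of all detected probe sets. Of the SNAREs and fusion factors, NSF, the ATPase that takes SNARE complexes apart, was at least 8.45-fold lower at 1566785_x_at, VTI1B, a SNARE of late endosomes, at least 5.09-fold lower, and SCFD1 at least 2.03-fold higher. Of the tethers, the golgins GOLGA4 and GOLGA3 were at least 5.43-fold and 4.06-fold higher, and VPS53 and COG6, subunits of Golgi tethering complexes, at least 5.17-fold and 2.58-fold lower. Apart from ARFGEF1, each of these was Present on 1 array only. The fold of COG6 was under 2 with the dim signal floored at the median Absent signal.

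The cell type was read as far as the array allowed. Of 17 plasma cell and B cell markers on the array 4 were Present on at least 1 array, and SDC1, the syndecan of plasma cells, was Present on both with 3389.7 in control cells and 4206 in sorted cells. CD27, MS4A1 and PRDM1 were Present in control cells only, and CD38, CD79A, XBP1 and IRF4 were Present on neither array. The Present signals of this list summed to 7550 for the control and 4206 for the sorted sample, but its 5 detected probe sets, whatever the call, summed to 7550 and 6662, and their median log2 ratio was 0.13. Of 16 endothelial markers ERG and FLT1 were Present, in sorted cells only, with a summed Present signal of 0 and 1360.1, or 739.9 and 1360.1 whatever the call, whereas VWF, PECAM1 and CDH5 were Absent on both arrays. Of 9 fibroblast and smooth muscle markers 6 were Present in control cells and 2 in sorted cells, with summed Present signals of 7687 and 3921, or 9160.2 and 9120.4 whatever the call, and of 6 macrophage and T cell markers on the array 0 were. By probe set, 5 of 40 of the plasma cell and B cell list were Present on at least 1 array. The endothelial list had 2 of 35 and the fibroblast and smooth muscle list 9 of 36. Among all probe sets the share was 12.5%, which the plasma cell and endothelial lists did not exceed. The part of the marker differences in the ratios of the members was not tested.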

How the data were processed

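Biotin-labelled cRNA of 1 sample of control and 1 sample of sorted YB2/0 cells was hybridised to 1 Affymetrix array each. The authors deposited a MAS5 signal for each probe set, an intensity on a linear scale, with its detection call and detection p-value, and Affymetrix Expression Console is the tool listed in the submitters' processing notes, its version being not given in the sources used here. Scaling had set the mean signal without the 2% at either end to 500.0 on both arrays, and a deposited p-value of up to 0.0490 was called Present. The 62 Affymetrix control probe sets were left out. Of the others 41091 probe sets had 1 gene symbol in the annotation, 1801 several and 11721 none.

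Ratios were computed from the signals as deposited, with Python 3.11.15, numpy 2.4.6 and pandas 2.3.3, and drawn with matplotlib 3.10.9. The number of arrays limits the precision. The 18 hybridisation spike probe sets had log2 ratios from -0.58 to 0.57 with an SD of 0.33, which served as the spread for saying that a value moved. With 1 array each, array and condition cannot be told apart. Members and gene lists were chosen with earlier results of these data known. Genes named were, from probe sets with 1 symbol, all members passing the 2-fold rule, up to 4 bright ones per family Present on both arrays, all genes with several Present probe sets, those next to 2-fold, and up to 4 per traffic list. Members outside this rule (AP1S3, AP2M1, AP3S1, COPB2, SEC24A, RAB5A, RAB7B, RAB11B, RAB12, RAB14, RAB21, RAB24, RAB26, RAB28 and RAB31), the further probe sets of CNIH4, GIT2, KDELR1 and RABEP1 and the probe sets with several symbols were added after their values had been seen. Alternatives were centring, quantile normalization, a floor on dim signals, the values of the series matrix, other probe set and detection rules, other folds, and 1 value per gene.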

Additional observations from a re-analysis of the deposited data

How the results depend on the processing

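No paired analysis was possible because each condition has 1 array, and for the same reason no array could be left out. Quantile normalization, centring, the series' value table, the floor on dim signals and leaving out ARFIP1, an alternative chosen after seeing the data, kept the counts of members within 1.5 times of 7 higher and 10 lower. Gene-specific here means an ID without _a, _s or _x before the final _at, so IDs ending in _a_at were left out too. This dropped the SAR1B probe set that passed the 2-fold rule. With gene-specific probe sets only the counts of higher and lower members were 2 and 3. With no detection call required they were 54 and 69, and with Present on both arrays required 2 and 5. With 1 value per gene they were 4 and 4, by the brightest probe set as by the median of the detected ones. With an Absent call on the dimmer array required 4 were lower, at 4-fold 2 were higher, and at 1.5-fold 12 were higher. The median of the clathrin probe sets, -2.88, reversed to 1.12 with gene-specific probe sets only, because no CLTA probe set is left there, and was -2.06 with the brightest probe set and -1.54 with the median of the detected probe sets of a gene. With gene-specific probe sets only the median was -3.38 for the Arf family with ARFIP1 and -0.73 for COPI, and AP-1 had no detected probe set left. The first rests on ARFIP1 218230_at (-6.75) and ARF6 214182_at (-0.01) alone. The second rests on COPB2 (-0.54) and COPG2 (-0.93) alone. For the wider traffic lists 3 probe sets were higher and 8 lower with gene-specific probe sets only, and 2 and 5 genes with the brightest probe set of a gene. With the floor on dim signals 5 traffic probe sets were higher and 12 lower, as RABEP1 225064_at and COG6 drop under 2-fold. Of the 47 named member probe sets 4 moved with the floor on dim signals: RAB5C 201140_s_at to 1.24, RAB27B 207018_s_at to -1.15, CLTC 210498_at to 1.5 and RAB1A 213440_at to -2.39. This floor was the median Absent signal of each array. With it these 4 folds are smaller than the values written with "at least", and ARFIP1 218230_at had a log2 ratio of -6.56. No ratio of 2-fold or more among the 47 reversed under quantile normalization, centring, the value table or the floor, but with centring ratios between 0 and 0.11 turn below 0.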
